A study of Mus musculus with 6 samples.

Results

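The STAT (signal transducer and activator of transcription) genes were followed in Th17 cells, the interleukin-17-producing T helper cells, with and without the N275D mutation of RORγt. The members were the rows of the deposited table whose gene symbol is Stat2, Stat3, Stat4, Stat5a, Stat5b or Stat6, which gave 6 genes of the 16244 in the table. Naive CD4+ T cells, labelled as from spleen, were activated with anti-CD3 and anti-CD28 and cultured for 3 days under pathogenic Th17 conditions. The series' design names IL-6, IL-1β and IL-23 for this culture, and the methods add TGF-β with antibodies against IL-4 and IFN-γ. There were 3 RNA-seq libraries from wild-type (WT) C57BL/6 mice and 3 from RORγt N275D knock-in mice on a C57BL/6 background, in which RORγt, the transcription factor that defines Th17 cells, carries a point mutation. Reads summed over a gene cannot show a single-base change, so the genotype labels were not checked. Both genotypes received the same culture. The methods give an age of 6 to 12 weeks for mice in general but not the zygosity of the RNA donors. The methods give a vendor for WT mice and another laboratory for the knock-in line, and mention littermate controls, when applicable, for the transfer experiments. They do not say whether the RNA donors were littermates, and if they were not, genotype and colony cannot be told apart. The methods define n in general as independent samples, mice or experiments, without saying which applies to these libraries. If the replicates were not separate mice or cultures, the p-values measure only the spread between libraries, which may be technical.

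STAT proteins wait in the cytoplasm until a cytokine binds its receptor. Janus kinases bound to the receptor then phosphorylate them, and they pair through their SH2 domains, enter the nucleus and bind DNA. In T helper cells STAT3 acts downstream of IL-6, IL-21 and IL-23 and is needed for Th17 differentiation, STAT4 acts downstream of IL-12 and IL-23, STAT5A and STAT5B downstream of IL-2 and IL-7, STAT6 downstream of IL-4, and STAT2 joins IRF9 in the ISGF3 complex formed after type I interferon. Their activity depends on phosphorylation, which transcript levels do not measure.

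The libraries held 17659035 to 18510878 reads on genes, and the values are normalized reads, that is reads multiplied by 1 factor per library. Of the T cell and Th17 markers in the table, Cd4, Cd3e, Cd3g, Il17a, Il17f, Il23r and Ccr6 were all well above 100 normalized reads in both genotypes, and their sum was 72949 to 76971 in WT and 85134 to 85936 in mutant libraries. By limma 4 of these 7 were higher and 2 lower, Cd4 (9143 ± 331 to 7591 ± 26.1, log2 fold change -0.27, adjusted p = 1.16e-05) and Cd3e (1351 ± 49.9 to 1159 ± 109, -0.22, adjusted p = 0.00586). Of all genes tested, limma called 24.7% higher and 26.1% lower, which is the background for the marker counts here. Markers of other cells were low but not absent. The 5 B cell markers summed to 150 to 160 in WT and 214 to 273 in mutant libraries, with 3 of 5 higher by limma, and the defining marker Ms4a1 averaged 0.336 and 5.96. The 4 measured CD8 T and natural killer cell markers summed to 182 to 195 and 251 to 281, with Cd8b1 and Eomes higher. Cd8a went the other way without passing the test (32.6 ± 6.70 to 27.6 ± 2.67, -0.22, limma adjusted p = 0.401). Klrb1c averaged 1.01 in WT and 0 in the mutant. The 5 myeloid markers summed to 81.8 to 92.8 and 82.0 to 106, with 1 lower, and Sox13, the only measured gamma delta T cell marker, lay at 18.2 to 31.4 and 35.1 to 38.5. The part of these cells in the results was not tested. In such bulk samples, fewer cells of a type and less RNA per cell cannot be told apart. WT replicate 3 was the library farthest from its group, with 2.95 to 3.02 times the counting noise against the other WT libraries.

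Transcripts of 4 STAT genes were higher and those of 1 were lower in RORγt N275D Th17 cells. Stat4 rose most (78.3% above WT), followed by Stat2 (35.4%), Stat3 (16.8%) and Stat5b (7.25%), while Stat5a fell by 14.2%. Stat6 differed from WT by -3.38% and did not pass the test. All 6 genes passed the minimum of 10 mean normalized reads, and each fold change is on the log2(normalized reads + 1) scale. By limma, with Benjamini-Hochberg adjustment over all 11908 genes tested, 5 of the 6 members had an adjusted p under 0.05. The same call was made for 50.9% of all genes tested, 24.7% higher and 26.1% lower. No member changed by 2-fold or more, a size that was called for 3.59% of genes. The 3 libraries of one genotype lay entirely above those of the other for 6 of 6 members and for 57.7% of all genes. The mutant was the upper genotype for 4 of these 6 members. Among all genes it was the upper one for 3347 of the 6875 without overlap, which is 28.1% of all genes tested. So many genes differed between these libraries that a call by itself sets no STAT gene apart, and the sizes below are given with the share of genes that changed by more.

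**Figure D1:**
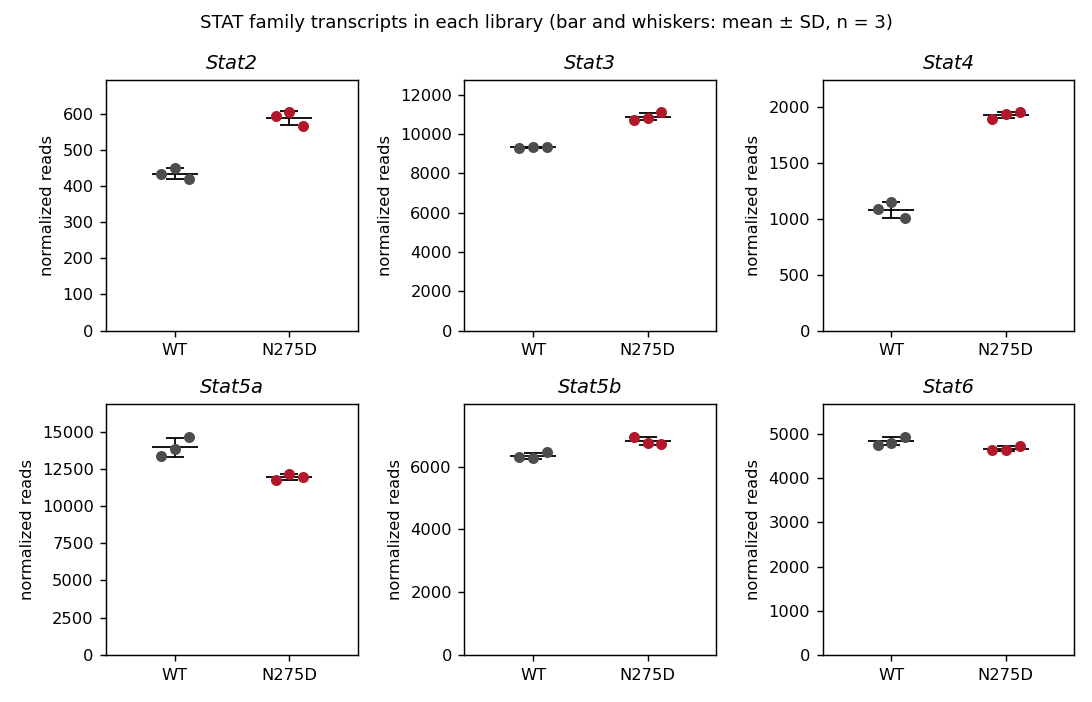
Normalized reads of the 6 STAT genes in each library, 1 panel per gene with its own axis from 0, with points for libraries and bars with whiskers for the mean ± SD. The Stat4 points lie at 1007 to 1153 in WT and 1900 to 1955 in RORγt N275D cells, and the genotypes overlap in none of the 6 panels.

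**Figure D2:**
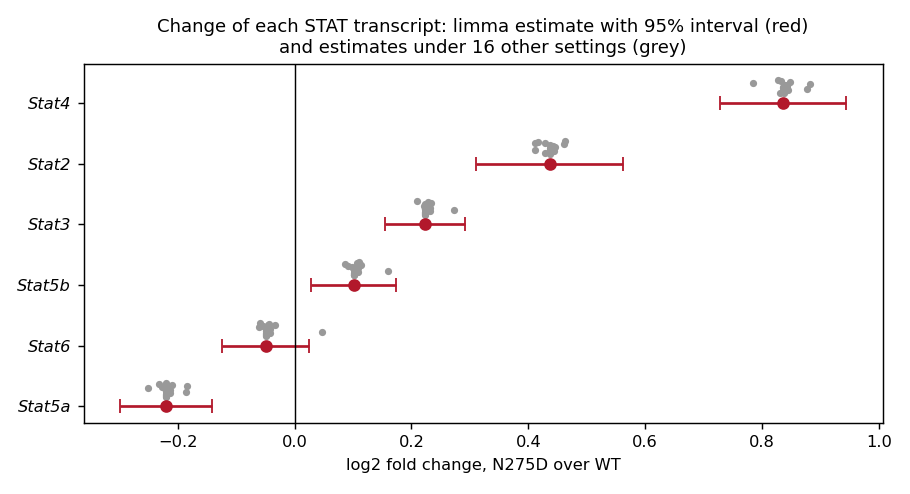
Log2 fold change of each STAT gene, RORγt N275D over WT, from limma with 95% confidence intervals (red) and under the 16 alternative analyses (grey points). Stat4 stands at 0.84, Stat5a at -0.22, and only the interval of Stat6 includes 0.

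Stat4 encodes the STAT that IL-12 and IL-23 receptors activate and that drives IFN-γ production in Th1 cells. It lies on chromosome 1, from 51987106 to 52107189 on the plus strand (GRCm38, the same build as mm10). The 250 bases before a RefSeq start of Stat4 are shown because they hold the 6 bases AGGTCA, the core of the site that ROR proteins are known to bind (capitals, from 69 to 64 bases before the start). The last of these 250 bases lie inside the span given above. The match to AGGTCA is a description of the sequence and does not show binding.
Stat4, chr1:51986898-51987147, plus strand: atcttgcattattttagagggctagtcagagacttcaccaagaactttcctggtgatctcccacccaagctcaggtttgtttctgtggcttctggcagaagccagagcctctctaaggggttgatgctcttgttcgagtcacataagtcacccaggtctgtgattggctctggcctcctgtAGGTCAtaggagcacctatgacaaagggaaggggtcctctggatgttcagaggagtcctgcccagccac

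The WT libraries held 1091, 1153 and 1007 normalized reads of Stat4, and the mutant libraries 1900, 1942 and 1955. Every mutant library was more than 1.5 times above every WT library. The WT mean of 1084 ± 73.4 compares with 1932 ± 29.1 in the mutant (SD, n = 3 each), for a log2 change of 0.84 (standard error 0.05, 95% confidence interval 0.73 to 0.94, limma adjusted p = 1.70e-09). A larger change in either direction was seen in 5.21% of genes. It kept its direction and its call in all 16 alternative analyses, which gave 0.78 to 0.88.

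Stat3 encodes the STAT on which induction of Il17a and Il23r depends in Th17 cells. It lies on chromosome 11, from 100886806 to 100939594 on the minus strand. Its promoter is shown for comparison with those of Stat4 and of Stat5a, its neighbour, because none of the 5 motifs searched was found in it. Part of this promoter lies inside the span of the gene.
Stat3, chr11:100939541-100939790, minus strand: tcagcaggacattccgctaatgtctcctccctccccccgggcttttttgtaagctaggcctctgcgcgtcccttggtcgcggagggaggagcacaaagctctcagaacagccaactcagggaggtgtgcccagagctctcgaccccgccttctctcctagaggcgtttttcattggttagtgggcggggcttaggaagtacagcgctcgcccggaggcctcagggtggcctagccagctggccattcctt

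Stat3 had 9295, 9357 and 9325 normalized reads in the WT libraries and 10741, 10832 and 11101 in the mutant libraries. The WT values lay within 1% of one another and all 3 mutant values were above them. The means were 9325 ± 31.1 and 10891 ± 188 (SD, n = 3 each), for a log2 change of 0.22 (standard error 0.03, 95% confidence interval 0.16 to 0.29, limma adjusted p = 2.85e-05). This was a small change with a small error, and 42.1% of all genes changed by more.

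Stat5a and Stat5b encode a pair of closely related STATs that transmit IL-2 and IL-7 signals and oppose Th17 differentiation. On chromosome 11 the 3 genes stand side by side in the order Stat5b (100780731 to 100859004, minus strand), Stat5a (100859351 to 100885169, plus strand) and Stat3. The spans of Stat5b and Stat5a are 346 bases apart and point away from each other, and those of Stat5a and Stat3 are 1636 bases apart. The promoters below are shown because each holds AGGTCA or its complement TGACCT (capitals), at 46 to 41 bases before the first start of Stat5a, 44 to 39 before the second, and 35 to 30 before a start of Stat5b. The first 30 bases after this Stat5b start were held by 0 annotated transcripts, and those after the other Stat5b start by 1. For the Stat5a starts the numbers were 1 and 4. Each of the promoters below lies wholly inside the span of its gene. The bases around TGACCT are alike at this Stat5b start and at the second Stat5a start, so these matches may not be independent.
Stat5a, chr11:100859406-100859655, plus strand: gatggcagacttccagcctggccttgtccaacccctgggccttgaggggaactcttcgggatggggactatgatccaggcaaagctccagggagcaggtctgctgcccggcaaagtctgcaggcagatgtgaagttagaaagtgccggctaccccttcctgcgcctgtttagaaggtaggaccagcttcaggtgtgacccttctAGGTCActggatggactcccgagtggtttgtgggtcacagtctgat
Stat5a second start, chr11:100860234-100860483, plus strand: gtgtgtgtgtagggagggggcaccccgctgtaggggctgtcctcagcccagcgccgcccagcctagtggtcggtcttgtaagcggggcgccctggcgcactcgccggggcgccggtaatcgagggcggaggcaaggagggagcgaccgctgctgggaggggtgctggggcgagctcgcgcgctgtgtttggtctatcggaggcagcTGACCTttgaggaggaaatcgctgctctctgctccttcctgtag
Stat5b, chr11:100822571-100822820, minus strand (capitals also mark GCGTG, a core bound by HIF-1): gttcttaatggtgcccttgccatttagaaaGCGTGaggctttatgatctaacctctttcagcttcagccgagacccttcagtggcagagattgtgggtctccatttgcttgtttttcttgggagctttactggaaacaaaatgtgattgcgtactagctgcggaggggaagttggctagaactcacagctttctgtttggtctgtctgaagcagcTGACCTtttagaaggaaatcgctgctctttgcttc

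The coding sequences of the pair are alike enough to share reads. The longest stretch that is identical in both runs for 324 bases, at positions 571 to 894 of each coding sequence, which have 2391 bases in Stat5a and 2358 in Stat5b. Its first 300 bases are shown because a read pair lying wholly inside the stretch cannot be assigned to either gene from its letters.
Stat5a and Stat5b, shared: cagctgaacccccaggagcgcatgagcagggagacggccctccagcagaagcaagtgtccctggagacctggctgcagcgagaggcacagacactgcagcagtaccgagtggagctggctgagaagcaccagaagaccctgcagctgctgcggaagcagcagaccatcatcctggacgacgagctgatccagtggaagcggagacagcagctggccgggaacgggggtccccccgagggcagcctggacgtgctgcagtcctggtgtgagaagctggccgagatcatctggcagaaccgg

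Over the longest protein-coding transcript, 4.68% of the stretches of 150 bases in Stat5a occur in Stat5b, and 3.46% of those in Stat5b occur in Stat5a. The other members shared no such stretch with any member. How the authors' counting treated shared reads is not given in the sources used here, so the split of the pair is uncertain to that extent.

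Stat5a had 13350, 13812 and 14646 normalized reads in WT and 11768, 12149 and 11949 in mutant libraries. All 3 mutant libraries were below all 3 WT libraries, of which WT replicate 3 was the highest. The means were 13936 ± 657 and 11955 ± 190 (SD, n = 3 each), for a log2 change of -0.22 (standard error 0.04, 95% confidence interval -0.30 to -0.14, limma adjusted p = 0.00013). In size, 42.9% of genes changed by more.

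Stat5b had 6319, 6273 and 6460 normalized reads in WT and 6954, 6758 and 6723 in mutant libraries. The mutant libraries were higher, and the gap between the genotypes was about as wide as the spread within each. The means were 6351 ± 97.4 and 6812 ± 125 (SD, n = 3 each), for a log2 change of 0.10 (standard error 0.03, 95% confidence interval 0.03 to 0.17, limma adjusted p = 0.0212). The call was lost without WT replicate 1 (log2 fold change 0.097), WT replicate 2 (0.092), N275D replicate 1 (0.086) or N275D replicate 2 (0.11), with limma adjusted p of 0.0582, 0.0664, 0.105 and 0.0578. Summed, the reads of Stat5a and Stat5b, which do not depend on how shared reads were split unless those were discarded, went from 20287 ± 739 in WT to 18767 ± 123 in mutant cells, 7.49% less.

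Stat2 encodes the STAT that needs IRF9 to bind interferon-stimulated response elements. It lies on chromosome 10, from 128270498 to 128292853 on the plus strand. It had 434, 449 and 418 normalized reads in WT and 593, 603 and 566 in mutant libraries. Its genotypes were well separated. The means were 434 ± 15.2 and 587 ± 19.2 (SD, n = 3 each), for a log2 change of 0.44 (standard error 0.06, 95% confidence interval 0.31 to 0.56, limma adjusted p = 1.62e-05), and 16.5% of genes changed by more.

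Stat6 encodes the STAT of IL-4 signaling, which drives Gata3 and Th2 differentiation. It lies on chromosome 10, from 127642955 to 127660987 on the plus strand. It had 4762, 4808 and 4939 normalized reads in WT and 4646, 4632 and 4740 in mutant libraries. The highest mutant library was just below the lowest WT library. The means were 4836 ± 91.8 and 4673 ± 59.0 (SD, n = 3 each), and the log2 fold change of -0.049 (standard error 0.04, 95% confidence interval -0.12 to 0.03) did not pass the test (limma adjusted p = 0.257). Quantile scaling gave 0.047, and 85.2% of genes changed by more.

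Among all 9 promoters of the 6 genes in the RefSeq table (GRCm38.p6, 250 bases before each start, both strands), 5 held AGGTCA. These were the Stat4 promoter shown above, that of Stat6, those of both Stat5a starts and of 1 of 2 Stat5b starts. The Stat5b one belongs to the start whose first bases were held by 0 annotated transcripts. The promoter of the other Stat4 start (chr1:52007990-52008239) did not hold AGGTCA. The same letters were in 14.0% of 32851 promoters. TTCNNNGAA, the STAT motif, was in 0 of the 9 and in 7.02% of all, and the same TTC and GAA with 4 bases between them, the spacing STAT6 prefers, in 1 (Stat2) and 5.85%. The HIF-1 cores ACGTG and GCGTG were in 1 (Stat6) and 2 (Stat2 and Stat5b), against 16.6% and 28.2% of all promoters. The genes with AGGTCA included one that rose most (Stat4), one that fell (Stat5a) and one that did not pass the test (Stat6).

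Levels of different genes were compared per kilobase of the longest protein-coding transcript. In WT cells Stat5a was the most abundant member with 3584 ± 169 normalized reads per kilobase (SD, n = 3), followed by Stat3 (1543 ± 5.15), Stat6 (1281 ± 24.3), Stat5b (1218 ± 18.7), Stat4 (363 ± 24.6) and Stat2 (98.7 ± 3.46). In mutant cells the order was Stat5a (3075 ± 49.0), Stat3 (1803 ± 31.0), Stat5b (1307 ± 23.9), Stat6 (1238 ± 15.6), Stat4 (648 ± 9.75) and Stat2 (134 ± 4.36). Stat5b and Stat6 exchanged places. They are neighbours that stand close in both genotypes, and with the length of all merged exons instead the order of Stat3, Stat5b and Stat6 became Stat5b, Stat6 and Stat3 in WT and Stat5b, Stat3 and Stat6 in the mutant. Stat5a stayed highest and Stat4 and Stat2 lowest with either length.

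The summed level of the 6 genes was 8089 ± 191 normalized reads per kilobase in WT and 8204 ± 54.4 in mutant cells, a difference of 1.41% that is smaller than the SD of the WT libraries. Per kilobase of merged exons, a choice made after seeing the data, it was 5531 ± 114 and 5709 ± 27.0 (SD, n = 3 each), a difference of 3.22%, larger than that SD and without overlap between the genotypes. Within the first of these sums, the share of Stat5a went from 44.3% ± 1.04 to 37.5% ± 0.428 (SD, n = 3). The share of Stat4 went from 4.50% to 7.90% and that of Stat3 from 19.1% to 21.97%. Stat5b moved from 15.1% to 15.9%, Stat6 from 15.8% to 15.1% and Stat2 from 1.22% to 1.63%.

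**Figure D3:**
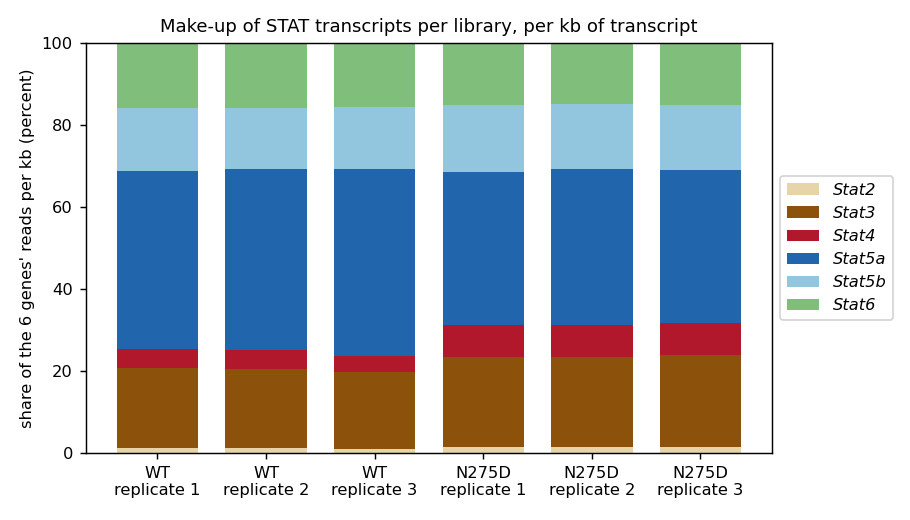
Share of each STAT gene in the summed normalized reads per kilobase of the 6 genes, as a stacked bar for each of the 6 libraries. Stat5a takes 44.3% on average in WT and 37.5% in RORγt N275D libraries, and Stat4 takes 4.50% and 7.90%.

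A ratio of 2 genes within a library does not depend on the factor of that library, so 3 ratios were compared. Stat4 to Stat3, the partners in IL-23 signaling, was 0.117, 0.123 and 0.108 in the WT libraries and 0.177, 0.179 and 0.176 in the mutant libraries. On the log2 scale the mean went from -3.11 ± 0.10 to -2.49 ± 0.01 (SD, n = 3 each), a difference of 0.61. Stat5a to Stat5b was 2.11, 2.20 and 2.27 in WT and 1.69, 1.80 and 1.78 in mutant libraries. Its log2 mean went from 1.13 ± 0.05 to 0.81 ± 0.05, a difference of -0.32. Stat6 to Stat4, which sets the Th2-linked against the Th1-linked STAT, was 4.36, 4.17 and 4.91 in WT and 2.45, 2.38 and 2.42 in mutant libraries. Its log2 mean went from 2.16 ± 0.12 to 1.27 ± 0.02, a difference of -0.89. The genotypes overlapped in none of the 3 ratios, and each gave p = 0.1 in a two-sided exact permutation test, the smallest value that 3 libraries against 3 allow, and 0.1 after adjustment over the 3. The ratios are formed from the members' values given above and are no independent evidence.

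**Figure D4:**
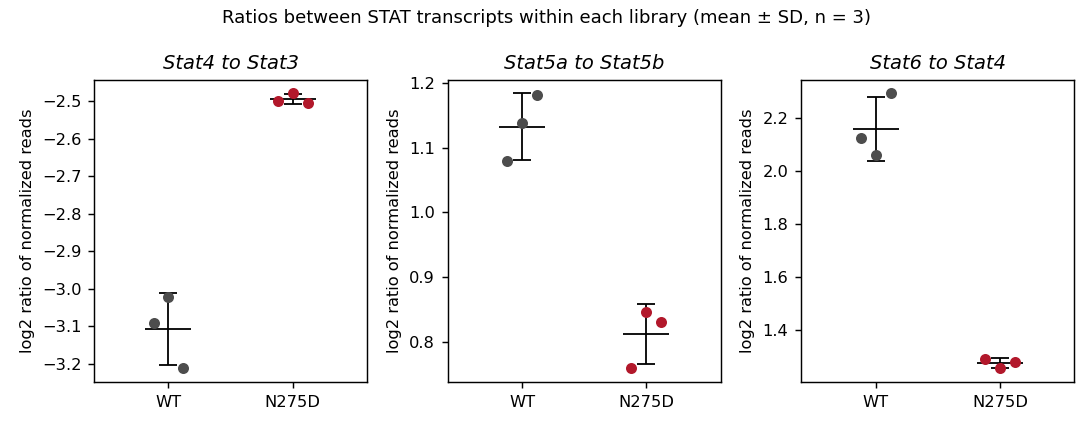
Log2 ratio of 2 STAT genes in each library, with points for libraries, bars with whiskers for the mean ± SD, and an axis of its own in each panel. Stat4 to Stat3 averages -3.11 in WT and -2.49 in RORγt N275D cells, Stat5a to Stat5b 1.13 and 0.81, and Stat6 to Stat4 2.16 and 1.27, without overlap.

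The other genes of the pathway were taken from 15 lists, which hold 113 different genes. The lists were written from general knowledge with earlier results of these data known, so their counts are a description and no independent evidence. Of the 101 that were tested, limma called 54 higher and 24 lower in the mutant, which is 77.2% called against 50.9% of all genes, with a median log2 fold change of 0.17 against -0.0026 over all genes. For comparison with each list below, 24.7% of all genes tested were called higher, 26.1% lower and 3.59% at 2-fold or more. The lists overlap, as Il23r, Il2ra and Socs1 stand in more than 1 of them.

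**Figure D5:**
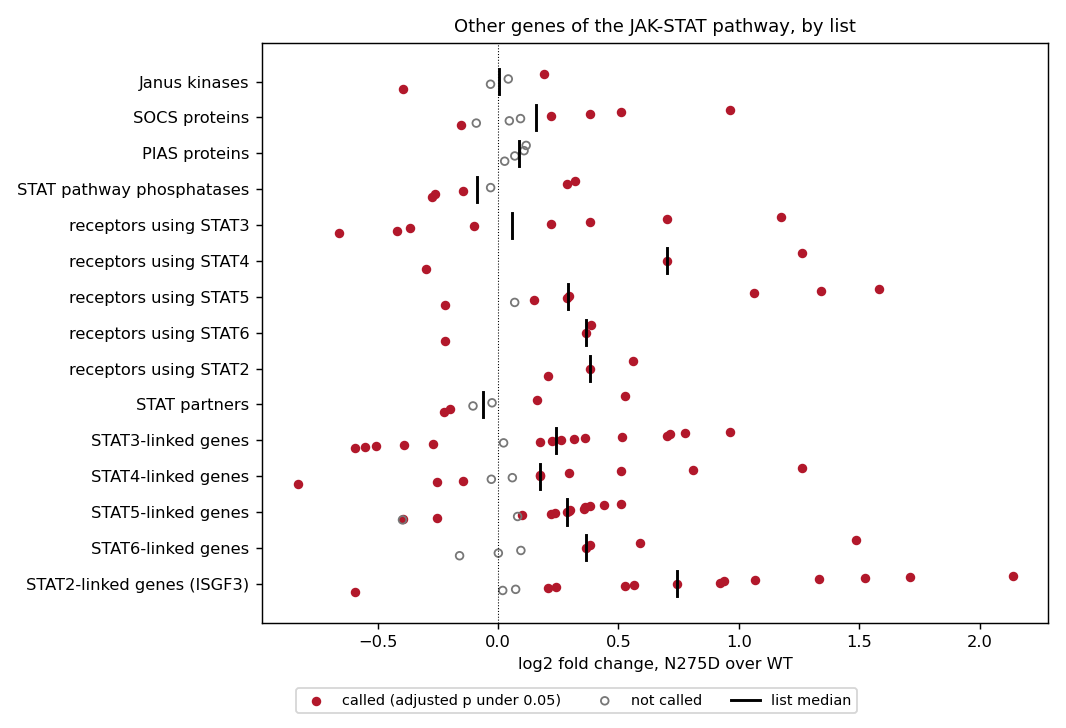
Log2 fold change, RORγt N275D over WT, of the tested genes of each of 15 JAK-STAT lists, with filled points for genes called at a limma adjusted p under 0.05, open points for the others and a black bar for the list median. The top point of the ISGF3 list is Ifit1 at 2.14, and Tbx21 is the lowest point of the STAT4-linked list at -0.83.

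The Janus kinases phosphorylate the STATs. Of 4, Tyk2, which serves IL-12, IL-23 and interferon receptors, was higher (1408 ± 64.2 to 1604 ± 47.9 normalized reads, log2 fold change 0.19, limma adjusted p = 0.00335). Jak2, the partner of Tyk2 on the IL-12 and IL-23 receptors, was lower, with 7224, 7293 and 6187 normalized reads in WT and 5184, 5059 and 5458 in mutant libraries. WT replicate 3 lay below the other WT libraries and still above all mutant ones, and the log2 fold change was -0.40 (standard error 0.05, limma adjusted p = 1.41e-05). Jak1 (0.042, limma adjusted p = 0.380) and Jak3 (-0.031, limma adjusted p = 0.494) did not pass the test, and quantile scaling gave 0.14 (a call, limma adjusted p = 0.0113) and 0.068 for them.

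Inhibitors of the pathway moved in both directions. The 8 SOCS genes include some that STATs themselves induce and whose products block receptors and kinases. Of the 8, 4 were higher and 1 lower, with a median log2 fold change of 0.16. Socs3, the inhibitor of IL-6 and IL-23 signaling through STAT3, had 1225, 1265 and 1349 normalized reads in WT and 2477, 2446 and 2561 in mutant libraries, so that the genotypes stood far apart (0.96, standard error 0.05, limma adjusted p = 8.67e-11). The other 3 higher genes were Socs2 (0.51), Socs1 (0.38) and Cish (0.22), all known targets of STAT5. The lower gene was Socs7 (-0.15), whose call was lost without N275D replicate 1 or N275D replicate 3, when 0 were lower. Of 6 phosphatases, Dusp22 (0.32) and Ptpn2 (0.29) were higher and 3 were lower, Ptpn11 (-0.28) and Ptpn6 (-0.26) the most. None of the 4 PIAS genes, whose products bind STATs in the nucleus, was called by limma, edgeR or DESeq2, and 1 had an unadjusted limma p under 0.05. Without N275D replicate 3, limma called 1 of them higher.

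Receptor subunits that signal through STAT4 and STAT5 are described first. Il12rb2, the signaling chain of the IL-12 receptor, had 1160, 1180 and 1146 normalized reads in WT and 2825, 2765 and 2780 in mutant libraries. Its log2 fold change was 1.26 (standard error 0.04, limma adjusted p = 9.25e-13), whereas Il12rb1, the chain shared by the IL-12 and IL-23 receptors, was lower (3302 ± 119 to 2681 ± 74.8, -0.30). Il23r, which completes the IL-23 receptor, was higher (385 ± 12.5 to 629 ± 50.3, 0.70). All 3 receptor genes of the STAT4 list were thus called, 2 higher and 1 lower.

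Of the 8 receptor genes of the STAT5 list, 6 were higher and 1 lower, with a median of 0.29 and 3 at 2-fold or more. Over all genes tested, the shares were 24.7% higher, 26.1% lower and 3.59% at 2-fold or more. Among the 6, Crlf2 was just under the threshold (0.15, limma adjusted p = 0.0497). Over the 16 alternatives, 4 to 6 genes of this list were called higher. Il7r, the IL-7 receptor chain, went from 592 ± 31.8 to 1502 ± 65.4 normalized reads (1.34, limma adjusted p = 1.49e-11). Il9r (1.06) and Csf2rb (1.58) were the others at 2-fold, both at low levels of 30.7 and 11.3 mean normalized reads in WT, and Csf2rb has a close copy in the genome with which it may share reads. Il2ra, the high-affinity chain of the IL-2 receptor, went from 26523 ± 738 to 32556 ± 497 (0.30), and Il2rg, the common gamma chain, was the one that was lower (7130 ± 164 to 6116 ± 220, -0.22).

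All 8 tested receptor genes of the STAT3 list were called, 4 in each direction. Over the 16 alternatives, 3 to 4 were called higher and 2 to 4 lower. Il10ra (59.0 ± 2.81 to 135 ± 7.74, 1.17), Il23r, Il10rb (0.38) and the shared IL-6 family chain Il6st (371 ± 6.46 to 432 ± 14.6, 0.22) were higher. Osmr (-0.66), Il27ra (-0.42) and the IL-6-binding chain Il6ra (344 ± 33.2 to 266 ± 11.1, -0.36) were among the lower ones. The remaining lower gene was Il21r, with a small change near the threshold (-0.10, limma adjusted p = 0.0406). The 2 chains of the IL-6 receptor thus moved in opposite directions. The call of Osmr was lost without WT replicate 2 (-0.46, limma adjusted p = 0.0973) or N275D replicate 1 (-0.58, limma adjusted p = 0.0573), and without the latter 2 of the 8 were lower.

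The STAT6 list had 3 receptor genes. Il4ra, the IL-4 receptor chain, was higher (6142 ± 99.0 to 7900 ± 73.0, 0.36), Il2rg was lower, and Il13ra1 (0.39, limma adjusted p = 0.0495) lost its call in 9 of 15 alternatives, among them without WT replicate 2, WT replicate 3, or any 1 N275D replicate (limma adjusted p of 0.0745 to 0.155). The 3 tested receptor genes of the STAT2 list were all higher: Ifnar1 (971 ± 33.0 to 1430 ± 17.7, 0.56), Il10rb and Ifnar2 (0.21), the first and last of which form the type I interferon receptor.

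Of 6 partner proteins, Irf9, the DNA-binding partner of STAT2, showed the largest change. It had 385, 399.5 and 380.1 normalized reads in WT and 572, 542 and 564 in mutant libraries, without overlap (0.53, standard error 0.06, limma adjusted p = 2.35e-06). Crebbp (0.16), Ncoa1 (-0.22) and Ndufa13 (-0.20) were also called, but Crebbp lost its call without WT replicate 1 or any 1 N275D replicate (limma adjusted p of 0.0542 to 0.154) and Ndufa13 without WT replicate 1, WT replicate 3 or any 1 N275D replicate (0.0660 to 0.0922). The log2 fold change of Crebbp was 0.10 without WT replicate 1, and that of Ndufa13 was -0.11 without WT replicate 3.

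Of 22 genes linked to STAT2 through ISGF3, 15 were tested, and 12 were higher, 1 lower and 5 at 2-fold or more, with a median of 0.74. Over all genes tested, the shares were 24.7% higher, 26.1% lower and 3.59% at 2-fold or more. Ifit3 and Usp18 (9.03 to 19.3 normalized reads) reached the mean of 10 only through the mutant. Over the 13 genes with a mean of 10 in both genotypes, the median was 0.56, with 10 higher and 1 lower, and neither set describes the 22. Ifit1 had 36.3, 29.3 and 35.4 normalized reads in WT and 141, 152 and 161 in mutant libraries, and every mutant library was more than 3 times above every WT library (2.14, standard error 0.13, limma adjusted p = 2.17e-09). Ifit3 (7.63 ± 3.64 to 26.2 ± 6.31, 1.71), Oasl1 (13.0 ± 2.82 to 38.8 ± 3.24, 1.52) and Isg15, a ubiquitin-like antiviral protein (44.4 to 55.5 in WT and 115 to 140 in the mutant, 1.33), were also higher. Oas1a was the 1 lower gene (28.0 to 18.3, -0.60), and its call was lost in 8 of 15 alternatives, among them without any 1 library other than N275D replicate 1 (limma adjusted p of 0.0567 to 0.112). These genes were at low levels, and the Ifit and Oas families have close copies that may share reads. With a minimum mean of 100, 4 genes of the list were called higher.

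Of 16 genes linked to STAT3, 10 were higher and 5 lower, with a median of 0.24. Socs3, Hif1a (5137 ± 317 to 8785 ± 55.9, 0.78), which encodes HIF-1α, Il10 (0.71) and Il23r had the largest changes.

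Of 11 genes linked to STAT4, 6 were higher and 3 lower, with a median of 0.17. Il12rb2 and Ifng, the Th1 cytokine gene (87.6 ± 8.34 to 155 ± 21.2, 0.81), were among the higher ones. Tbx21, which encodes the Th1 regulator T-bet, was lower, with 558, 560 and 577 normalized reads in WT and 337, 323 and 292 in mutant libraries, a clear separation (-0.83, standard error 0.07, limma adjusted p = 5.19e-08). Ifng and Tbx21, both linked to STAT4, thus moved in opposite directions.

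Of 15 genes linked to STAT5, 11 were higher and 2 lower, with a median of 0.29, and besides Socs2 the largest changes were in Prdm1 (0.44) and Bcl2l1 (-0.40), an anti-apoptotic gene. The call of Prdm1, at 37.7 ± 1.54 and 51.8 ± 6.81 normalized reads, was lost in 7 of 15 alternatives, among them without WT replicate 2, WT replicate 3, N275D replicate 2 or N275D replicate 3 (limma adjusted p of 0.0620 to 0.143). Stat5a itself was lower. Of 9 genes linked to STAT6, 7 were tested and 4 were higher and 0 lower by limma, with 1 lower without WT replicate 2. Il24 (719 ± 50.2 to 2014 ± 80.4, 1.49, limma adjusted p = 5.35e-12) and the Th2 regulator Gata3 (129 ± 15.2 to 194 ± 15.9, 0.59) rose most, and the other 2 were Il4ra and Socs1.

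The tested genes next to the members on the chromosome were read for comparison. Stat5b, Stat5a and Stat3 are each other's neighbours, and along the chromosome their log2 fold changes were 0.10, -0.22 and 0.22. Beyond Stat3, Cavin1 was higher (1.23, limma adjusted p = 7.77e-09), and beyond Stat5b, Ghdc was not called (0.09, limma adjusted p = 0.350). Il23a, which encodes the p19 chain of IL-23, begins 3286 bases after Stat2 and went from 35.6 ± 3.06 to 71.7 ± 8.33 normalized reads (0.99, limma adjusted p = 6.39e-05), while Timeless on the other side was at -0.036. Nab2 overlaps Stat6 by 70 bases on the other strand and went from 4124 ± 224 to 1598 ± 13.4 (-1.37, limma adjusted p = 8.99e-13). The strand setting of the authors' counting is not given in the sources used here, so the reads of this overlap may have been left out or given to either gene. Lrp1, on the other side of Stat6, was higher (0.38).

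Likeness of pattern was measured as the root mean square difference of mean-centred log2 values over the 6 libraries, as a description. The values were not scaled, so genes with a fold change of like size come out as alike, and the lists largely restate the fold changes. The tested genes most like Stat4 were Spty2d1 (0.0339), Abca1 (0.0364) and Hif1a (0.0375). Their log2 fold changes were 0.82, 0.78 and 0.78, and that of Stat4 was 0.84. Those most like Stat3 were Ahcyl2 (0.0127), Mtmr3 and Zkscan3, and those most like Stat2 were Cth (0.0209), Acbd5 and Kif3c. For Stat5a they were Raver1 (0.00898), Nup210 and Hnrnpul1, and for Stat5b they were Chfr (0.00434), Tob1 and Esyt1. No member was among the 3 genes most like another member.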

How the data were processed

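The 6 Th17 libraries were grouped by their labels, 3 per genotype, and analysed as RNA-seq. According to the methods, the authors' reads were trimmed, mapped to mm10 by STAR, assigned to genes by featureCounts and tested by DESeq2. Versions, strand setting and the handling of shared reads are not given in the sources used here. The methods describe strand-specific DNBSEQ libraries, the labels poly-A selection with another directional kit. The deposited signal is the authors' read count per gene times 1 factor per library (0.9823 to 1.0093), and 100% of values were whole multiples of it within 1e-06. The log2 fold changes, q-values and whole-number averages (a rounded score) that the authors deposited were not used.

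Genes with a mean of at least 10 (11908) were tested by limma 3.58.1 (R 4.3.3, trended prior) on log2(value + 1), and called at a Benjamini-Hochberg adjusted p under 0.05. The fit was tested on simulated data. Alternatives were pseudocounts of 0.1 and 10, means above 0 or of at least 100, TMM and quantile scaling, no trend, the replicate number as a block, edgeR 4.0.16 and DESeq2 1.42.0 on recovered reads, and each library left out. The members and lists were chosen with earlier results of these data known. Named were all members, up to 4 called genes per list with the largest changes, neighbours and the 3 most alike genes. Socs7, Oas1a, Il21r and Crlf2 were named after their values were seen. Some genes that this rule names are not reported here. Positions and promoters are from RefSeq (GRCm38.p6), which matched 16135 of 16244 genes.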

Additional observations from a re-analysis of the deposited data

How the results depend on the processing

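Over 16 alternatives, 4 to 5 of the 6 STAT genes were called, 3 to 4 higher and 1 lower, and list genes called numbered 40 to 54 higher and 19 to 24 lower. Stat2, Stat3, Stat4 and Stat5a kept direction and call in all 16. Stat5b lost its call by eBayes without a trend (0.10, limma adjusted p = 0.0742), with the replicate block (0.10, limma adjusted p = 0.0561) and without 4 of the 6 libraries, and leaving out each library gave 0.086 to 0.11 for it. The cause was not tested. Quantile scaling turned Stat6 to 0.047 (limma adjusted p = 0.257) and Jak3 to 0.068 (limma adjusted p = 0.118). It moved the median of all genes from -0.0026 to -0.018. Of 803 repeats for 51 of the other named genes, 763 kept direction and call, 38 lost the call, 1 gained it and 1 reversed.

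With merged exon length, a choice made after seeing the data, levels per kilobase were lower because those lengths are greater. In WT they were 73.2 (Stat2), 979 (Stat3), 280 (Stat4, 279.9), 1954 (Stat5a), 1147 (Stat5b) and 1099 (Stat6), and in N275D cells 99.1, 1143, 499, 1676, 1230 (1229.8) and 1062 in the same order. Libraries with the same replicate number did not deviate together (correlations -0.05, 0.04 and -0.08). With 3 libraries per genotype, these values cannot show whether the samples were paired. The block gave 5727 called genes in place of 6056, DESeq2 5078 and edgeR 6085. Depth was like in all libraries. The fewest reads of a member in a library were 426 (Stat2), so counting error weighs most on Stat2.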
